A study of Mus musculus with 3 samples.

Results

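The genes described are those of the integrins, the receptors that anchor cells to the matrix around them, and of the laminins, the trimeric proteins to which several integrins bind. They were taken as all probes, other than control spots, that the array files name as an integrin α or β subunit or as a laminin α, β or γ chain, and proteins that merely bind an integrin were left out. The members reported are 65 probes of 35 genes, 25 for integrins and 10 for laminins, among 41174 probes and 28655 named genes.

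EpH4 is a mouse mammary epithelial cell line, and EpH4-PR cells carry a stably transfected progesterone receptor. Total RNA of EpH4-PR cells, grown in serum-containing DMEM and harvested before confluence, with no hormone treatment named in the labels, was labelled with Cy5 and hybridised on 3 arrays against one reference RNA, Stratagene mouse standard, labelled with Cy3. The dyes were not exchanged on any array, so an effect of the dye on a probe cannot be told apart from a difference in RNA. The lines were made by selecting transfected clones, and the labels name no clone. All 3 arrays form 1 group, so each ratio sets EpH4-PR RNA against a reference whose tissue or cell sources the labels do not name, and a ratio says nothing of what the receptor changed; RNA of EpH4 cells with an empty vector was not analysed here.

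An integrin is a dimer of one α and one β subunit, and the pair decides the ligand. In epithelium, laminins are laid down in the basement membrane, and the α6β4 integrin ties them to the keratin filaments through hemidesmosomes whereas α3β1 links them to actin. Laminin chains assemble as one α, one β and one γ chain, and a trimer that holds the α3 and β3 chains is the one that hemidesmosomes of skin and mammary epithelium adhere to.

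The stretches of sequence that lie upstream of members with a called ratio are shown first, because the called ratios belong to these genes. The promoters used, RefSeq starts of GRCm38.p6 with a chromosome left out, covered 23 of the 35 genes, with 26 promoters in all. Among the genes called below they covered Itga3, Lama5 and Itgb7, and Itgb4 and Itga6 have no entry. The 250 bases before the start are given 5′ to 3′ on the gene's own strand, which is the minus strand for each. Capitals mark the letters GGGCGG, a GC box, or CAGGTG, an E-box, on either strand. They lie at chr11:95076715-95076964 for the more distal of 2 Itga3 starts, at chr2:180225860-180226109 for Lama5 and at chr15:102231936-102232185 for Itgb7.
Itga3: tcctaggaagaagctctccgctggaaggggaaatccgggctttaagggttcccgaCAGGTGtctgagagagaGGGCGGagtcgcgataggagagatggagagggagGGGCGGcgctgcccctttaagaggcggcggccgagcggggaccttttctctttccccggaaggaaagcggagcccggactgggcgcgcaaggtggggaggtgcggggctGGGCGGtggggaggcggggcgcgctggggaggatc
Lama5: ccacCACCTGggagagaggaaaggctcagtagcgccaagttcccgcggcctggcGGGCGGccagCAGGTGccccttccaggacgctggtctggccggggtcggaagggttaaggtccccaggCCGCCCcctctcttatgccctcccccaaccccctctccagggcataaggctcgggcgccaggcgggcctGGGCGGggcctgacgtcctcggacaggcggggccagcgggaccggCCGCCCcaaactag
Itgb7: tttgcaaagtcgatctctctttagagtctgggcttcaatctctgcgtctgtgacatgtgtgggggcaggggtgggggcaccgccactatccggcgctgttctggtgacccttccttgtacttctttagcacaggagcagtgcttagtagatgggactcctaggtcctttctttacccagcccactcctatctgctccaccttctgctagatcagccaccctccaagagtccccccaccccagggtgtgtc

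The letters GGGCGG occurred 4 times before the Lama5 start and 3 times before the distal Itga3 start, and CAGGTG occurred 2 times and 1 time in the same windows. The window of the other Itga3 start, at chr11:95069199-95069448, held GGGCGG 1 time and CAGGTG 0 times. The Itgb7 window held neither, nor TGANTCA, the AP-1 motif, nor TATAAA. Over the 32851 mouse promoters of this length that were counted, with a chromosome left out, GGGCGG was found in 32.7% and CAGGTG in 17.2%. TATAAA was found in 12.4% and TGANTCA in 6.75%. Among the 26 promoters of integrin and laminin genes, 9 held GGGCGG, 8 held CAGGTG, 1 held TGANTCA and 0 held TATAAA. GC content was 72.4% for Lama5, 67.6% for the distal Itga3 window, 50.8% for the other Itga3 window and 56% for Itgb7. The median over the promoters counted was 52.4%. These are matches of letters, and the arrays measured no binding to them.

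On the arrays, the median spot intensity was 93.8 to 113 for EpH4-PR and 108 to 142 for the reference. The local background was 39 to 43. The median of 314 negative control spots was 57.3 to 74.1 in the EpH4-PR channel and 91.8 to 121 in the reference channel. Both lay above that local background, so a spot at the level of the negative controls keeps signal after subtraction. The background correction also used an offset of 50, and ratios of dim probes changed when it was set to 0. The part of the offset and of the remaining signal in the ratios of dim spots was not tested. Of the 65 probes, 41 were detected in EpH4-PR, that is, marked by the scanner software as well above background, on all 3 arrays (63.1%, against 68.9% of all probes), 8 on some arrays and 16 on none. No member spot was saturated or marked as an outlier. Ratios of the members correlated between pairs of arrays with r = 0.974, 0.959 and 0.957 across probes, which are not independent. The labels do not say that the arrays came from separate cultures, and the p-values measure the spread between these 3 arrays alone. They were taken as 1 sample each.

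By these ratios, in a single dye orientation, the laminin-binding subunits Itgb4 and Itga3 and the laminin chain Lama5 were higher in EpH4-PR RNA than in the reference. Itgb7, a leukocyte subunit, and 1 of 2 probes of Itga6 were lower. Here and below, a call needed both an adjusted p under 0.05 (limma, Benjamini-Hochberg over all probes) and a log2 ratio of at least 1 in size. In bulk RNA, fewer cells of a type and less RNA per cell cannot be told apart. On that rule 5 of the 65 probes were higher in EpH4-PR (7.69%), against 2.26% of all probes, and 2 were lower (3.08%), against 3.83% of all probes. The other 58 were not called. The median log2 ratio was -0.04 for the 65 probes and -0.01 for all. Among all probes 932 were higher and 1578 lower with loess, a split of 37.1% higher, and 7031 were higher and 708 lower when each array was centred on its median instead, a split of 90.9%. The members then gave 9 higher and 1 lower. All 5 higher probes were called higher under every way of processing tried, and Itgb7 was called lower under every one, whereas the Itga6 probe was not called with median centring.

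**Figure D1:**
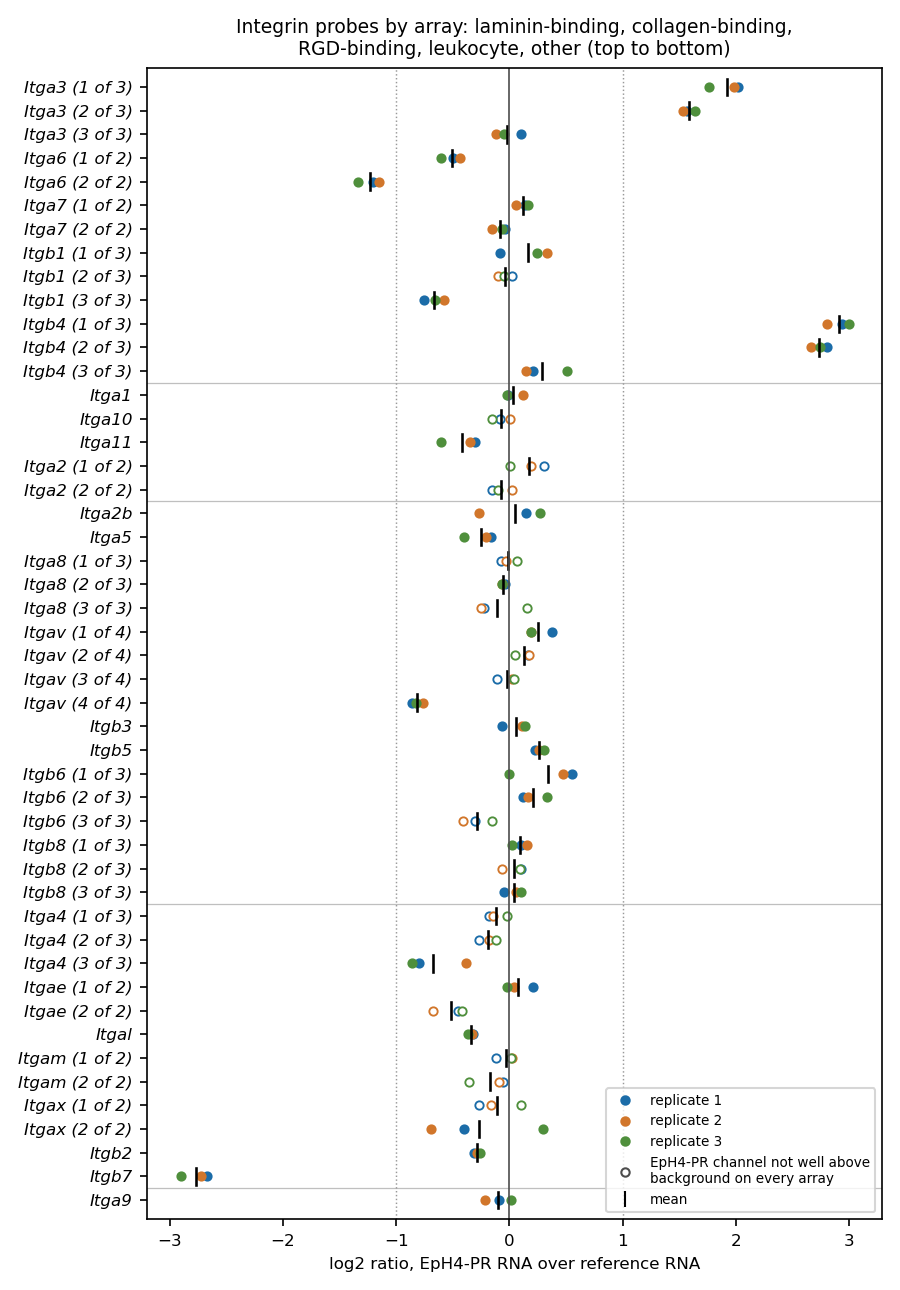
The log2 ratio of EpH4-PR RNA over reference RNA (horizontal axis) is plotted for each of the 48 integrin probes (rows, grouped by ligand) on 3 arrays (coloured points), with the mean as a black tick and dotted lines at -1 and 1; hollow points mark probes whose EpH4-PR channel was not well above background on every array. Both upper Itgb4 probes lie near 3, the upper Itga3 probes lie between 1.53 and 2.02, and Itgb7 lies below -2.6 on every array.

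Of the 5 laminin-binding subunit genes, Itgb4 and Itga3 had probes called higher, Itga6 had one called lower, and Itgb1 and Itga7 had none called. Itgb4, the β subunit that pairs only with α6 and carries the long tail that reaches the hemidesmosome, read 2.94, 2.81 and 3.00 (log2) on the 3 arrays with probe A_52_P143287, a mean of 2.91 ± 0.095 (SD, n = 3) or 7.53-fold, with an adjusted p of 1.44e-05 from limma. The other transcript variant 1 probe of Itgb4, A_51_P408382, read 2.81, 2.66 and 2.75, a mean of 2.74 ± 0.072 or 6.67-fold. Every array gave both probes more than 2.6, and the first probe was the higher on each array. Before dye normalization, the net intensity of the first was 2648, 2302 and 2525 in EpH4-PR and 149, 142 and 116 in the reference. The channels were far apart on every array.

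The third Itgb4 probe, annotated to transcript variant 3, did not follow them with the processing reported. It was dim, with a net intensity of 71, 66 and 47 in EpH4-PR. Over all ways of processing its ratio ran from 0.16 to 2.03, and it met the rule for a call in 1 of them. As reported, it read 0.21, 0.14 and 0.51 (mean 0.29 ± 0.195). The reference channel was well above background on 0 of 3 arrays, so that the reference level of this variant was not measured. The variants are represented by 2 probes and 1 probe, and no test compared them.

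Itga3, the α subunit that joins β1 to bind laminin at focal contacts, was also higher. Probe A_51_P515056 read 2.02, 1.98 and 1.76 on the 3 arrays, a mean of 1.92 ± 0.139 or 3.79-fold, and probe A_52_P301804 read 1.57, 1.53 and 1.64, a mean of 1.58 ± 0.055 or 2.99-fold (adjusted p = 2.85e-05, limma). The third probe, A_51_P230405, read 0.11, -0.12 and -0.05, a mean of -0.02 ± 0.116, although it carries the same accession. The first 2 probes lay above 1.5 on every array and the third lay around 0, so the ratio of Itga3 depended on the probe. The sign of the third turned to 0.48 with median centring and to 0.10 in the ratio of the scanner software.

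Itga6, the α partner of Itgb4, was lower or near its reference level. The probe A_51_P262401, which targets a cDNA clone of the gene, read -1.20, -1.15 and -1.33, a mean of -1.23 ± 0.095 or 2.34-fold lower (adjusted p = 7.08e-05, limma). The RefSeq probe A_52_P81270 read -0.49, -0.43 and -0.60, a mean of -0.51 ± 0.085, under the size that a call needs. Both lay below 0 on every array, and with median centring the first read -0.14 and the second 0.19. No test compared Itga6 with Itgb4.

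The other laminin-binding subunits were not called. Itgb1, the β subunit shared by most matrix-binding integrins, had probes at 0.16 ± 0.222 and -0.66 ± 0.088, the second 0.51 with median centring, and its β1D probe was well above background in EpH4-PR on 2 of 3 arrays. Itga7, the α subunit of the laminin receptor of muscle, had probes at 0.12 ± 0.054 and -0.09 ± 0.060, of which the signs turned with median centring to -0.11 and 0.42. Of the 13 probes of these 5 genes, 12 were well above background in EpH4-PR on all arrays.

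None of the collagen-binding or RGD-binding subunits was called by limma. At an unadjusted p under 0.05, whatever the size, limma gave 0 probes above and 1 below 0 of the 5 collagen-binding probes. Of the 17 RGD-binding probes it gave 5 above and 3 below. The ordinary t statistic gave 0 and 1, and 1 and 2. Over all probes, 57.4% passed that threshold by limma, in either direction. Among the collagen-binding genes, Itga1 read 0.03 ± 0.078 and Itga11 -0.42 ± 0.160, both without a call, and Itga2 and Itga10 were not well above background in EpH4-PR on every array. One Itga2 probe, dim in EpH4-PR on all 3 arrays and well above background in the reference, read -0.15, 0.02 and -0.10, on both sides of 0. The 8 RGD-binding genes, whose products recognise a short motif in fibronectin and vitronectin, had 17 probes, and the 11 that were well above background in EpH4-PR lay between -0.82 and 0.34. Those at the ends were a probe of Itgav (-0.82 ± 0.046), whose other measured probe read 0.25 ± 0.105, and one of Itgb6 (0.34 ± 0.299), the epithelial partner of αv.

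The β3 and β5 partners of αv were bright in both channels. Itgb3 read 0.06 ± 0.108 and Itgb5 read 0.26 ± 0.040 with loess, and median centring took them to 1.46 and 1.66, past the size of a call. Before dye normalization, net intensities were 3825 to 4099 for Itgb3 and 3983 to 4399 for Itgb5 in EpH4-PR. In the reference they were 1215 to 1451 and 1169 to 1243. Which of the centrings holds was not tested. Itga5, the α subunit of the main fibronectin receptor, read -0.26 ± 0.127, Itga2b of platelets 0.05 ± 0.285, Itga8 -0.06 ± 0.015 on its measured probe, and Itgb8 0.09 ± 0.066 and 0.04 ± 0.076. Itga9, which binds tenascin and other ligands, read -0.10 ± 0.114.

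Itgb7 had the lowest ratio of the integrin probes. This subunit pairs with α4 and αE on lymphocytes. It read -2.67, -2.73 and -2.90 on the 3 arrays, a mean of -2.77 ± 0.120 or 6.82-fold lower (adjusted p = 1.82e-05, limma). Its net intensity was 103, 101 and 91 in EpH4-PR and 452, 452 and 457 in the reference, so every array gave the reference more signal. Its partners read -0.68 ± 0.260 (Itga4, the 1 of 3 probes well above background, not called) and 0.08 ± 0.118 (Itgae, the αE subunit). The other Itgae probe read -0.52 ± 0.139 and was well above background in EpH4-PR on 2 of 3 arrays.

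The leukocyte subunits of the β2 family did not pass the size of a call. Itgb2, shared by that family, read -0.28 ± 0.027 and Itgal -0.34 ± 0.027, both at an adjusted p under 0.05 (limma); with median centring they read 0.43 and 0.23. Itgax read -0.27 ± 0.509, with arrays on both sides of 0, and neither Itgam probe was well above background in EpH4-PR on any array. Of the 9 leukocyte marker genes, 5 were lower, 0 higher and 4 were not called, with probe ratios from -4.50 to 0.11. The probe at -4.50, of Ptprc, was well above background in EpH4-PR on 0 of 3 arrays, so its level there was not measured. Another called Ptprc probe, well above background on all 3, read -1.40. A marker gene counted as called where any of its probes was, and no such share was computed over all genes. The lower ones were Ptprc, Lyz2, Coro1a, Adgre1 and Cd68. The summed net intensity of their 18 probes was 1112 to 1554 in EpH4-PR and 3943 to 4623 in the reference, and 13 of the probes were well above background in EpH4-PR on all arrays. None of the probes lay above 0 at an unadjusted p under 0.05, and 14 lay below by limma. Over all probes, 57.4% passed that threshold by limma, in either direction. The part of these markers in the Itgb7 ratio was not tested.

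**Figure D2:**
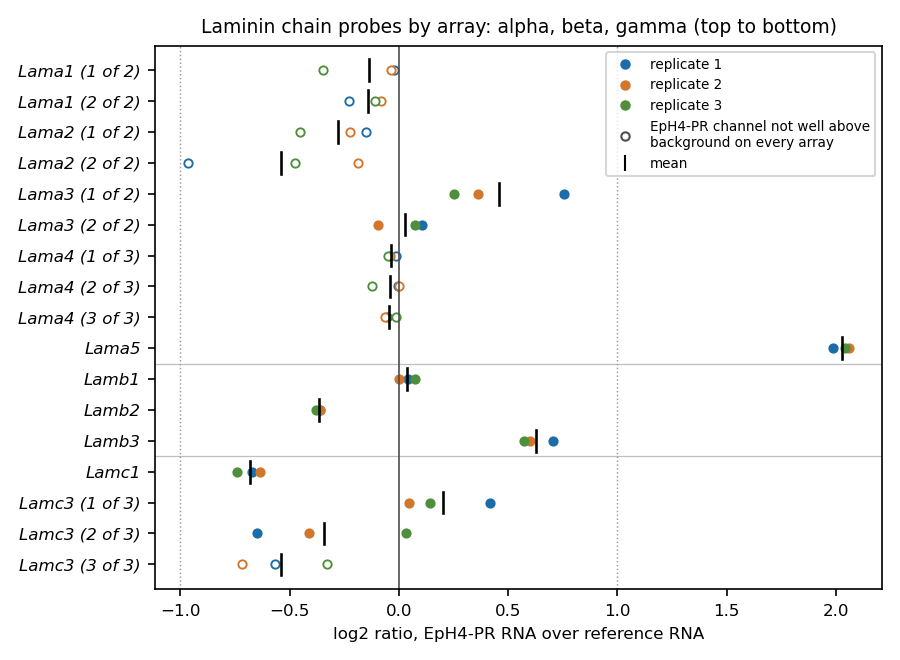
The log2 ratio of EpH4-PR RNA over reference RNA (horizontal axis) is plotted for the 17 laminin probes (rows, α chains above, then β and γ) on 3 arrays (coloured points), with black ticks for means, dotted lines at -1 and 1, and hollow points where EpH4-PR was not well above background on every array. Lama5 lies near 2, Lamb3 between 0.57 and 0.70, and no laminin probe lies below -1.

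Of the 17 laminin probes, 1 was called higher and 0 lower. At an unadjusted p under 0.05, whatever the size, 3 lay above and 6 below 0 by limma, and 2 and 3 by an ordinary t statistic. The limma count is 52.9% of the laminin probes, against 57.4% of all probes. Lama5, the α chain of the laminin found in most adult basement membranes, read 1.98, 2.06 and 2.04, a mean of 2.03 ± 0.039 or 4.08-fold (adjusted p = 1.81e-05, limma). The arrays lay within 0.1 of each other. Its net intensity was 5340, 4916 and 5298 in EpH4-PR against 479, 432 and 445 in the reference.

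The chains Lama3 and Lamb3 of the hemidesmosomal laminin had mean ratios above 0 without a call. Lamb3, the β3 chain, read 0.70, 0.60 and 0.57, a mean of 0.63 ± 0.069 with an adjusted p of 0.000392 (limma), and reached 1.49 in the ratio of the scanner software and 1.26 with median centring. Lama3, the α3 chain, had a probe at 0.76, 0.36 and 0.25, a mean of 0.46 ± 0.265, and a second at 0.03 ± 0.107 with arrays on both sides of 0; without replicate 1 the second read -0.01. The ratios are each against the reference level of that chain, and they do not say how many molecules of the chains the cells held.

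The chains that assemble with Lama5 did not share its ratio. Lamb1, the β1 chain, read 0.04, 0.00 and 0.07, a mean of 0.04 ± 0.036. Lamc1, the γ1 chain, read -0.67, -0.63 and -0.74, a mean of -0.68 ± 0.053, under the size of a call with an adjusted p of 0.000242 (limma). Lamb2 read -0.37 ± 0.011. With median centring, Lamb1 read 1.30, Lamc1 0.58 and Lamb2 0.56, so the side of Lamc1 and Lamb2 turned with the centre and Lamb1 stayed above 0 in both, while Lama5 then read 3.38 and stayed above them.

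The remaining α chains were dim. None of the 7 probes of Lama1, Lama2 and Lama4, chains of embryonic, muscle and endothelial basement membranes, was well above background in EpH4-PR on any array. One Lama2 probe was well above background in the reference on all arrays and read -0.15, -0.23 and -0.45, with no measured level in EpH4-PR. Of the 3 probes of Lamc3, 2 were measured, at 0.20 ± 0.192 and -0.34 ± 0.347, with the first the higher on each array. With Itgam, these were the 4 genes of the 35 with no probe above background in EpH4-PR on any array, and 29 genes had at least 1 probe measured on all 3. The 24 probes that were dim on at least 1 array had ratios between -0.54 and 0.17.

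**Figure D3:**
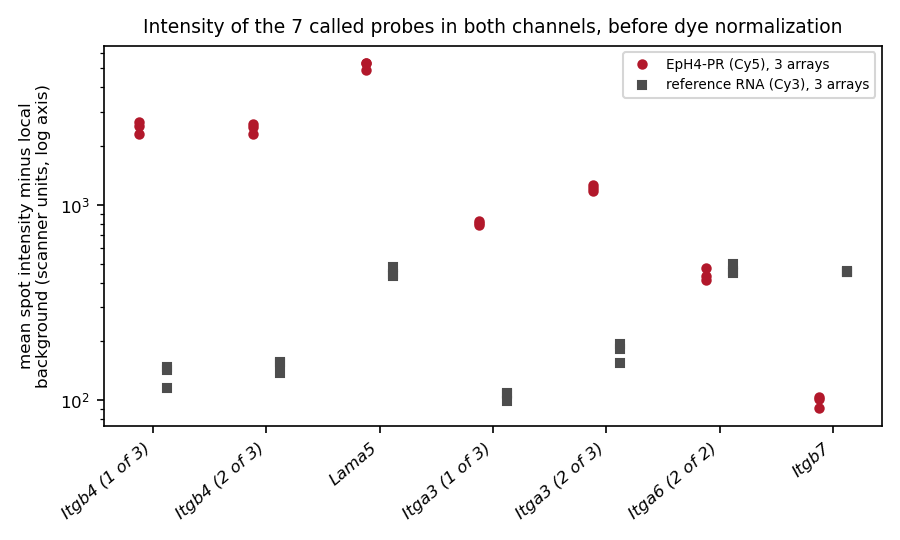
Mean spot intensity minus local background (vertical axis, scanner units, log scale) is plotted for the 7 called probes in EpH4-PR (red circles) and reference RNA (grey squares) on 3 arrays, before dye normalization; the label of each probe gives its place among the probes of the gene. The channels are far apart for Itgb4, Lama5, Itga3 and Itgb7, and nearly level for Itga6, whose log2 ratio of -1.23 arises after loess. All intensities shown precede loess, so the gaps are not the reported ratios.

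For Itga6 the net intensities were 473, 433 and 412 in EpH4-PR and 496, 448 and 461 in the reference. The channels differed little before loess, and this was the 1 call of the 7 that was lost with median centring. For the 5 higher probes the net intensity in EpH4-PR was at least 789 on every array and in the reference at most 479. The ordering of channels was the same on all 3 arrays for each of the 7 probes. A gap before loess is not the ratio after it. Itgb3, at 3825 to 4099 in EpH4-PR and 1215 to 1451 in the reference, read 0.06 with loess.

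Several probes were present for 19 of the genes, and in 3 of them, Itgb4, Itga3 and Itga6, some probes were called and others not. In the other genes with several probes none was called. Of the 58 probes without a call, 22 had an adjusted p under 0.05 (limma) with a ratio smaller in size than 1, of which 6 were above 0 and 16 below. The 22 probes are 37.9% of the 58, against 47% of all probes without a call. The median SD between arrays was 0.095 for members well above background in both channels, against 0.085 for all such probes. A further 5 probes, filed under clone names, map to Itga1, Itga9 and Itgav by accession, lay outside the rule, and were not called.

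**Figure D4:**
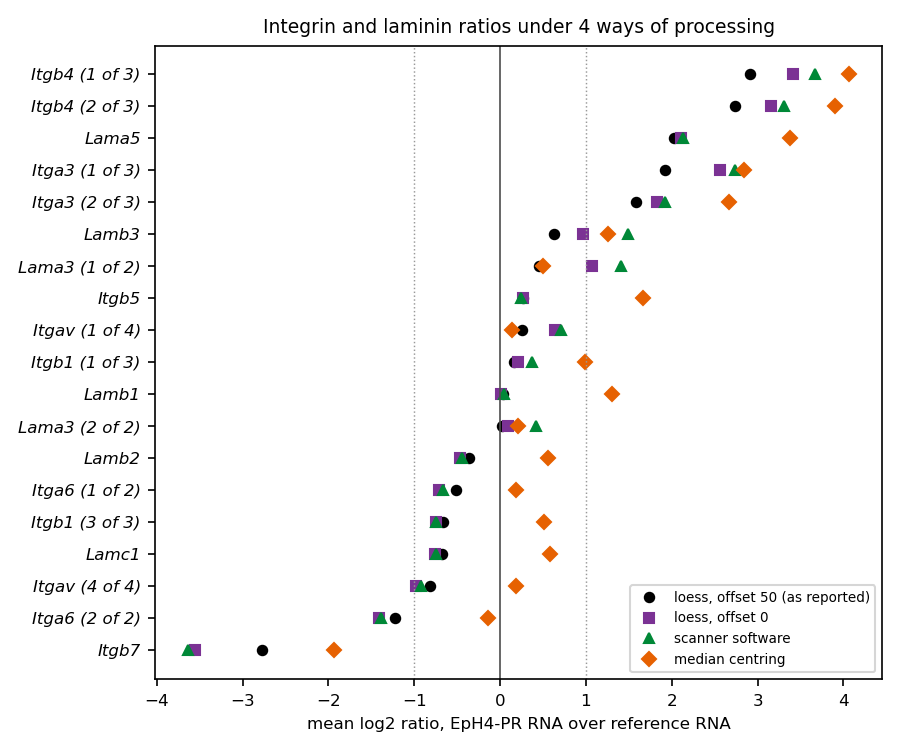
The mean log2 ratio of EpH4-PR RNA over reference RNA (horizontal axis) is plotted under 4 ways of processing (symbols) for the called probes and for the measured probes of Itga6, Itgav, Itgb1, Itgb5, Lama3, Lamb1, Lamb2, Lamb3 and Lamc1 (rows, by ratio as reported). The rows of Itgb4, Lama5 and Itga3 lie above 1 under each, Itgb7 lies below -1 under each, and median centring carries Lamc1, Lamb2, the lower Itgb1 and Itgav probes and the upper Itga6 probe from below to above 0.

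Genes that work with integrins and laminins were read from lists of their own, in which a gene counted as called where any of its probes was. The share of all genes called on that rule was not computed, so these counts have no like share beside them. Over all probes, 2.26% were higher and 3.83% lower, and a gene with more probes has more chances of a call. Of the 23 adaptor genes on the inner side of integrins, 3 were higher (Fermt1, Nedd9 and Parva), 2 were lower (Lims2 and Fermt2) and 18 were not called, with a median probe ratio of 0.05. Fermt1, the epithelial kindlin that activates β subunits, read 1.20 ± 0.107, with its second probe at 0.81 ± 0.170, and Fermt2, the kindlin of most other tissues, read -1.04 ± 0.067, with its second probe at -0.78 ± 0.071. Parva, a linker to actin, had one probe at 1.24 ± 0.053 and another at -0.74 ± 0.053. The talin gene Tln1 read 0.11 to 0.37 over its 3 probes, without a call.

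The hemidesmosome list gave 1 gene higher, 0 lower and 5 not called of 6 by limma. At an unadjusted p under 0.05 it gave 5 of 16 probes above and 5 below 0. Over all probes, 57.4% passed that threshold by limma, in either direction. The higher one was Krt14, a basal keratin, at 2.08 ± 0.133. The plakins that join β4 to keratin were not called, with Plec between -0.48 and 0.46 over its probes and Dst between -0.13 and 0.64. Krt5, the usual partner of Krt14, read -0.11 ± 0.067, and Cd151, the tetraspanin that binds α3 and α6 integrins, read -0.12 ± 0.026. Neither Col17a1 probe was well above background in EpH4-PR on every array.

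Of 10 basement membrane genes with a probe, 6 were lower, 1 was higher and 3 were not called, with a median probe ratio of -0.71. Nid1, the nidogen that links the laminin γ1 chain to collagen IV, read -4.22, -4.19 and -4.41, a mean of -4.27 ± 0.118. Nid2 was not well above background in EpH4-PR on any array. Sparc, a collagen-binding matrix protein, read -1.59 ± 0.100 and -2.10 ± 0.077. The collagen IV genes, named after their values were seen, differed by gene and probe. Col4a1 was lower at -1.84 and -1.05, and Col4a2 at -1.47 with an uncalled probe at -0.67. Col4a6 was lower at -1.41, with uncalled probes at -0.27 and -0.27. Col4a5 was not called, at 0.00. Col7a1, the anchoring fibril collagen that binds the hemidesmosomal laminin, was the one higher gene, at 1.53 ± 0.096.

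The list of 8 other laminin receptors, which also holds Cd44 and the integrin-binding Cd151, gave 1 gene higher, 1 lower and 6 not called. Sdc4, a syndecan, read 1.82 ± 0.025 with one probe and 0.64 ± 0.072, without a call, with the other. Cd44, a hyaluronan receptor, had 1 of 3 probes called, at -1.34 ± 0.107, and the others read -0.16 ± 0.101 and 0.19 ± 0.116. Among 21 genes of integrin ligands, 2 were higher, 10 lower and 9 not called. Cdh1, the epithelial cadherin that αEβ7 binds, read 4.29 ± 0.097, and Thbs1 had 2 of 4 probes called, at 1.09 ± 0.057 and 1.05 ± 0.160, with the others at 0.75 and 0.23. Vcam1, the ligand of α4 integrins, had probes at -3.13 ± 0.105, -1.44 ± 0.118 and, without a call, -0.20 ± 0.091, and Fn1, fibronectin, had one at -1.21 ± 0.063 and others at -0.50 ± 0.154 and -0.04 ± 0.218. The collagen gene Col1a1 read -5.03 ± 0.119 and -2.16 ± 0.151 with 2 probes and -0.26 ± 0.179, without a call, with another, and Col1a2 read -4.29 ± 0.132 with its 1 probe.

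**Figure D5:**
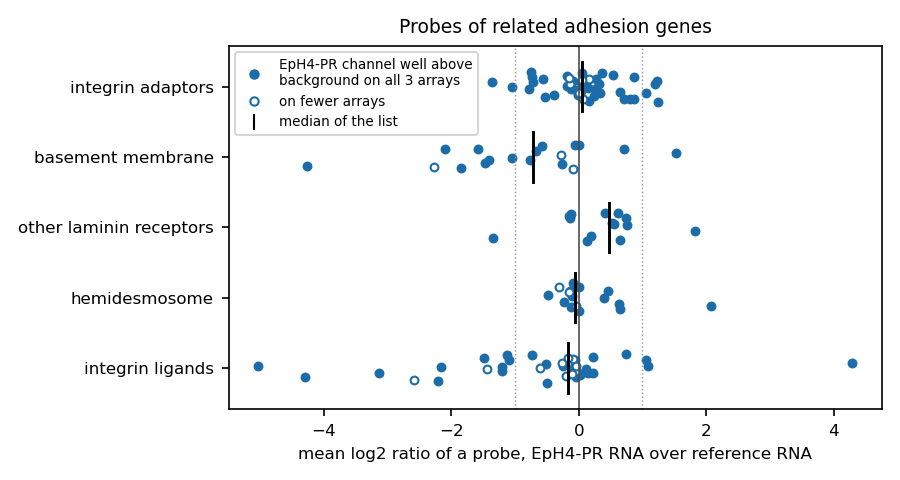
The mean log2 ratio of EpH4-PR RNA over reference RNA (horizontal axis) is plotted for each probe of 5 lists of related genes (rows; points are jittered in height), with a black tick at each list's median and hollow points where EpH4-PR was not well above background on all 3 arrays. The basement membrane list has its median at -0.71 and reaches -4.27, and the lists of adaptors and hemidesmosome genes centre near 0.

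The labelled epithelial type was read against marker genes, counted in the same way and again without a share over all genes. Of 9 luminal markers 7 were higher, among them Cdh1, Cldn3, Cldn7 and Krt8, 1 was lower (Krt19) and Elf5 was not well above background in EpH4-PR on any array. Of 8 basal markers 1 was higher, Krt14, and 2 were lower, Acta2 and Mylk, each on some of its probes. Acta2 had called probes at -2.80 ± 0.064 and -2.01 ± 0.150, and others, without a call, from -0.16 to 0.60. The probe at -2.01 was well above background in EpH4-PR on 1 array. Mylk had a called probe at -1.09 ± 0.250 and others, without a call, at -0.89 and 0.31. Of 8 fibroblast markers 7 were lower and 0 higher, with Vim at -6.51 ± 0.114 on the 1 of its 2 probes that was above background in EpH4-PR, and their summed net intensity was 3000 to 3602 in EpH4-PR against 42704 to 48487 in the reference. Endothelial markers gave 0 calls among 6 by limma. At an unadjusted p under 0.05, 1 of 7 probes lay above and 2 below 0 by limma, and 0 by an ordinary t statistic. Over all probes, 57.4% passed that threshold by limma, in either direction. Platelet markers gave 1 lower (Pf4) among 6. The part of the fibroblast markers in the ratios of the collagens, nidogens and integrins was not tested.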

How the data were processed

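RNA of EpH4-PR cells was compared with reference RNA on 3 two-colour Agilent arrays. The authors deposited the output of Agilent Feature Extraction 8.1.1.1, in which each spot has an intensity and a local background intensity per channel, and the scanner software's log10 ratio (Cy5 to Cy3), used as an alternative. The array analysis of the authors is described elsewhere and was not used here. A table of the authors' own comparison (ratio, fold change, score and p-value of unnamed sides) was not used.

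Mean spot intensities were corrected with normexp (offset 50) on the local background median and normalized within arrays by loess, with control spots at weight 0. Outlier spots were left out and spots of a probe averaged. The test of each log2 ratio against 0 used limma's lmFit and eBayes (R 4.3.3, limma 3.58.1; Python 3.11.15 for promoters and figures), with Benjamini-Hochberg adjustment over 41174 probes; the procedure was tested on simulated data. Probes of a gene were kept apart. Detection used the scanner's well-above-background flags. Files name genes by the array design; RefSeq accessions (GRCm38.p6) named 47 of the 65 member probes. One gene that the rule takes in is not reported here. Arrays give no counts, and their number limits the precision. The members, their roles and the gene lists (integrin adaptors, basement membrane, other laminin receptors, hemidesmosome, integrin ligands, and luminal, basal, fibroblast, leukocyte, endothelial and platelet markers) were chosen with earlier results of these data known. Values on each array are given for called probes and for genes whose probes differ in call. Of each list, at most the 3 highest and 3 lowest called genes and genes that pair with a member are named. The collagen IV genes and the called marker genes were named in addition, after their values were seen. Alternatives were the background correction, offset, scaling, spot summary, outliers, a filter on dim probes, the intensity trend, an ordinary one-sample test per probe ("the methods' t-test") and leaving out each array.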

Additional observations from a re-analysis of the deposited data

How the results depend on the processing

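The number of member probes called higher was 5 under each alternative except the scanner software's ratio (10) and median centring (9). The number called lower was 2 except with normexp offset 0 (6), the scanner software's ratio (10) and median centring (1). All 5 higher probes remained called in every setting, with log2 ratios of 2.67 to 4.06 and 2.52 to 3.90 for Itgb4, 1.98 to 3.38 for Lama5, and 1.65 to 2.84 and 1.46 to 2.67 for Itga3; Itgb7 ranged from -3.63 to -1.94 and Itga6 from -1.41 to -0.14. Over the related lists, 8 genes were higher and 19 lower, against 13 higher with offset 0, 14 with the scanner software's ratio and 28 with median centring, which left 11 lower. Among all probes, 932 were higher and 1578 lower, against 3125 and 3905 with offset 0 and 3616 and 3887 in the scanner software's ratio. Of 574 values of the 41 measured probes under the alternatives, 507 kept their direction and side of the p threshold, 27 lost significance, 18 gained it and 22 changed sign. With median centring the sign changed for Itgal (0.23), Itgb2 (0.43), Lamc1 (0.58), Itgb1 (0.51), Itga1 (-0.15), Lamb2 (0.56), Itga7 (-0.11 and 0.42), Itgb8 (-0.084 and -0.18), Itga2b (-0.12), Itga3 (0.48), Itga6 (0.19) and Itgav (0.18). With the scanner software's ratio it changed for Itga2b (-0.19), Itga3 (0.10) and Itga8 (0.040). When 1 array was left out, values ran from -0.016 to 0.055 for Itga1 (below 0 without replicate 2), -0.010 to 0.089 for Lama3 (replicate 1), -0.061 to 0.21 for Itga2b (replicates 1 and 3, the former -0.00041) and -0.086 to 0.027 for Itga3 (above 0 without replicate 2). The ordinary one-sample t-test gave 929 higher and 1577 lower of all probes without adjustment and 897 and 1547 after Benjamini-Hochberg, with 5 and 2 members in both. The cause was not tested. No paired analysis was possible because there is 1 group. Signal over background limits 24 of the 65 probes.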
